A study of Pyronema omphalodes CBS 100304 with 6 samples.

Results

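*PCON_04080*, a protein of unknown function, and *PCON_09334*, a homolog of periodic tryptophan protein 2, are 2 of the 13369 predicted genes of *Pyronema confluens*, a filamentous ascomycete that grows without visible rhythm. They are 2 of the candidate clock-controlled genes that the study followed by RT-qPCR over time courses in darkness at both of its temperatures, as it also did for *PCON_04507* and *PCON_13506*. They had been picked from genes ranked high in its own comparison of the libraries described here, so that their difference between the time points chose them and is given without a test. RNA was sequenced from vegetative mycelium of strain CBS100304 in 6 libraries, 3 from the subjective morning (36 hr in constant darkness, DD36) and 3 from the subjective evening (24 hr, DD24), with independent biological replicates a, b and c of both (counts below are listed in this order). All cultures were shaken at 100 rpm and 25° in WPC medium according to the labels, or minimal medium according to the methods, kept in constant light for at least a day before the shift to darkness, and harvested at the same overall growth time. With 2 time points at 1 temperature, these counts cannot show a rhythm, its period or its temperature compensation. The RT-qPCR time courses were not analysed here.

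In *Neurospora crassa* the circadian clock is a feedback loop in which the white collar complex activates the *frequency* gene (*frq*), and the FRQ protein, bound to the helicase FRH and phosphorylated by casein kinases, shuts that complex down again. Genes whose transcripts follow the loop are called clock-controlled genes (*ccgs*). In yeast, Pwp2 is a WD40-repeat protein of the UTP-B subcomplex, which binds the nascent ribosomal RNA precursor together with the U3 small nucleolar RNA and helps to build the small subunit processome, the particle from which the small ribosomal subunit is made. The product of *PCON_04080* has no annotated match, and nothing is stated here about its role.

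The gene models differ in layout. *PCON_04080* occupies 22923 to 25226 of scaffold 154 of the authors' genome v01_2 and is read from the plus strand, with 3 exons of 583, 123 and 1422 bases and introns of 70 and 106 bases. Its mRNA model of 2128 bases has a coding part of 1734 bases (578 codons), a leader of 67 bases and a trailer of 327 bases. The coding part is long for a gene of unknown function: of the 5564 models with that description only 4.01% were longer, and their median was 288 bases. *PCON_09334* occupies 57269 to 60264 of scaffold 445 and is read from the minus strand. Its first 3 exons have 59, 113 and 95 bases, and the last exon with 2540 bases holds most of the coding part of 2664 bases (888 codons). Its 3 introns have 57, 73 and 59 bases, and its leader and trailer have 41 and 102 bases. Over all models the median mRNA length was 1188 bases, and 20.8% of the models had a longer mRNA than *PCON_04080* and 10.9% a longer one than *PCON_09334*. Counts grow with length, so that levels of different genes are compared below per kilobase of mRNA, and CPM not divided by length serves only to choose which genes of a list are named.

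**Figure D1:**
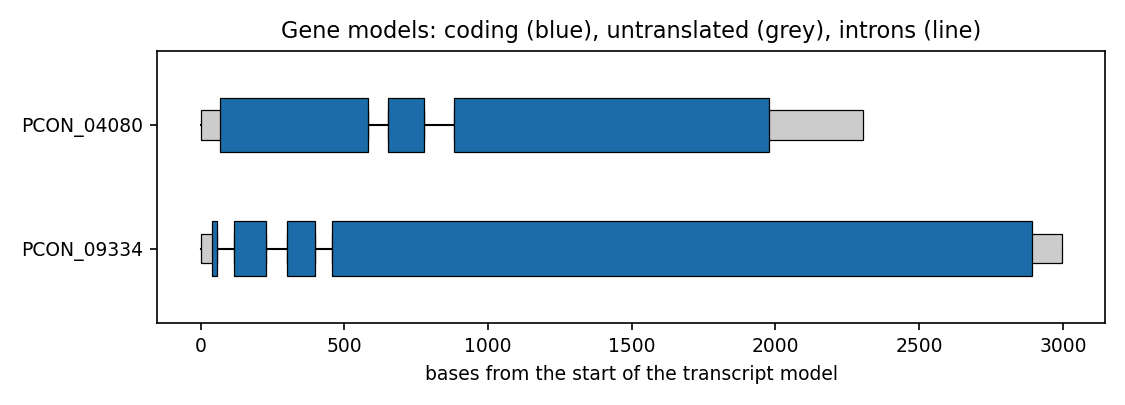
Gene models of both genes, drawn to scale in bases from the start of each transcript model. Blue boxes are coding, grey boxes untranslated, and lines introns; *PCON_04080* has 3 exons and the longer trailer, and *PCON_09334* has 3 short exons followed by 1 of 2540 bases.

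The counts summed to 855895 to 1058211 in DD36 libraries and 806459 to 1132608 in DD24 libraries. CPM stands for counts per 1000000 counts of the genes tested, scaled by the trimmed mean of M values (TMM), and 3 counts, taken as the upper limit where none was seen, stood for 2.55 to 4.73 CPM. A single model, *PCON_08583*, took 30.7% to 39.3% of the counts in DD36 and 34.0% to 52.2% in DD24, where replicate a stood apart and had a TMM factor of 0.728 against 1.02 to 1.13 in the other libraries. The files and labels name no marker of vegetative mycelium. Of 51 models matched by words for sexual development, a stage that needs light in this fungus and is not formed in shaken cultures, 29 had enough counts to be tested, and the list summed to 2423 to 2924 CPM in DD36 and 2561 to 3114 CPM in DD24. The meiotic recombination genes *PCON_04896* (SPO11) and *PCON_03294* (DLH1) were counted 3 times each over the 6 libraries. Both were named after their values were seen, do not stand for the list, and nothing is read from them about this stage. In RNA from whole mycelium, more cells with a transcript and more transcript per cell cannot be told apart.

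*PCON_04080* had 179, 336 and 213 counts in the DD36 libraries and 111, 159 and 62 counts in the DD24 libraries. After scaling it stood at 207, 286 and 196 CPM in DD36 and at 175, 139 and 75.2 CPM in DD24. The lowest DD36 library, replicate c, lay above the highest DD24 library, replicate a, and the exact counting intervals of these libraries overlapped, with 170.2 to 224 CPM for the DD36 one and 144 to 211 CPM for the DD24 one (95%, counting error only). The means were 229.5 ± 49.0 CPM in DD36 and 129.7 ± 50.5 CPM in DD24 (SD, n = 3 each). Within DD24 the highest library was 2.33 times the lowest. The coefficient of variation was 21.3% in DD36 and 38.9% in DD24, where counting error alone would give 6.42% and 9.51% at the mean counts.

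*PCON_09334* had 22, 40 and 39 counts in the DD36 libraries, against 8, 18 and 13 counts in the DD24 libraries. This corresponds to 25.5, 34.0 and 35.8 CPM in DD36 and to 12.6, 15.7 and 15.8 CPM in DD24. Every DD36 library lay above every DD24 library, and the means were 31.8 ± 5.52 CPM in DD36 and 14.7 ± 1.82 CPM in DD24 (SD, n = 3 each). The coefficient of variation between replicates was 17.4% in DD36 and 12.4% in DD24, where counting error alone would give 17.2% and 27.7%. Few reads stood behind each value, and the 8 reads of DD24 replicate a allow 5.44 to 24.8 CPM.

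**Figure D2:**
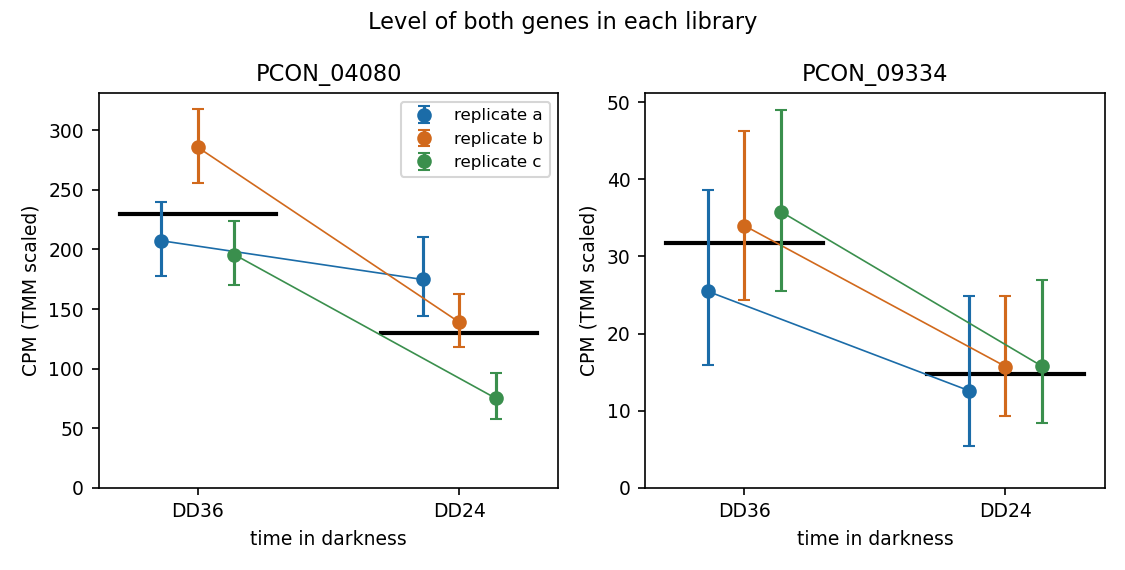
CPM of both genes in each library (DD36 left, DD24 right), with exact 95% counting intervals as bars, lines between libraries of the same letter and black bars for the means. *PCON_04080* ranged from 75.2 to 175 CPM within DD24 alone, whereas *PCON_09334* stayed between 12.6 and 15.8 CPM there, with wide counting intervals.

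Per kilobase of mRNA *PCON_04080* stood at 108 ± 23.0 CPM in DD36 and 60.9 ± 23.7 CPM in DD24 (SD, n = 3 each), and *PCON_09334* at 11.3 ± 1.97 CPM in DD36 and 5.24 ± 0.647 CPM in DD24. Both genes thus took very different places among the 5466 genes tested. Between 8.95% and 12.9% of these genes were higher per kilobase than *PCON_04080* in the DD36 libraries, and between 15.2% and 34.1% in the DD24 libraries. For *PCON_09334* the corresponding shares were 72.9% to 85.8% in DD36 and 94.3% to 96.1% in DD24, among the lowest genes tested in DD24 only. The filter works on counts, so that a gene with a long mRNA can pass it at a low level per kilobase. The choice of both genes for a higher level in DD36 favors their lower places in DD24.

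Libraries of the same letter deviated together over all genes, and both genes were therefore also read within letters. *PCON_09334* was 2.02-fold higher in DD36 in pair a, 2.16-fold in pair b and 2.27-fold in pair c. These values lie close to each other on the log2 scale, with a mean of 1.10 and an SD of 0.08 over the 3 pairs, although the counting interval of pair a alone runs from 0.867-fold to 5.25-fold. *PCON_04080* was 1.19-fold higher in pair a, 2.05-fold in pair b and 2.60-fold in pair c. Its counting interval in pair a, from 0.930-fold to 1.52-fold, includes no change and lies below the intervals of pair b (1.70-fold to 2.50-fold) and pair c (1.95-fold to 3.51-fold). Pair a thus carried little of the difference of *PCON_04080*, and DD24 replicate a was the highest of the DD24 libraries for this gene.

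How DD24 replicate a is scaled bears on this pair. With the counts divided by the library's total alone, pair a of *PCON_04080* stood at 1.67-fold and that of *PCON_09334* at 2.84-fold, but this scaling also placed the median of 5462 genes 0.50 higher on the log2 scale in pair a (0.14 in pair b and 0.10 in pair c). With totals that leave out *PCON_08583* and 3 models similar to a spike, a capsid and a scaffolding protein known from bacteriophages, pair a gave 1.31-fold for *PCON_04080* and 2.23-fold for *PCON_09334*. The counting interval of pair a of *PCON_04080*, which includes no change under TMM, ran from 1.31-fold to 2.13-fold with the total alone and from 1.03-fold to 1.67-fold with these reduced totals. Under each of the 3 scalings pair a was the smallest of the pairs for *PCON_04080* and pair c the largest. For *PCON_09334* pair a was the smallest except under total-count scaling, where it was the largest.

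**Figure D3:**
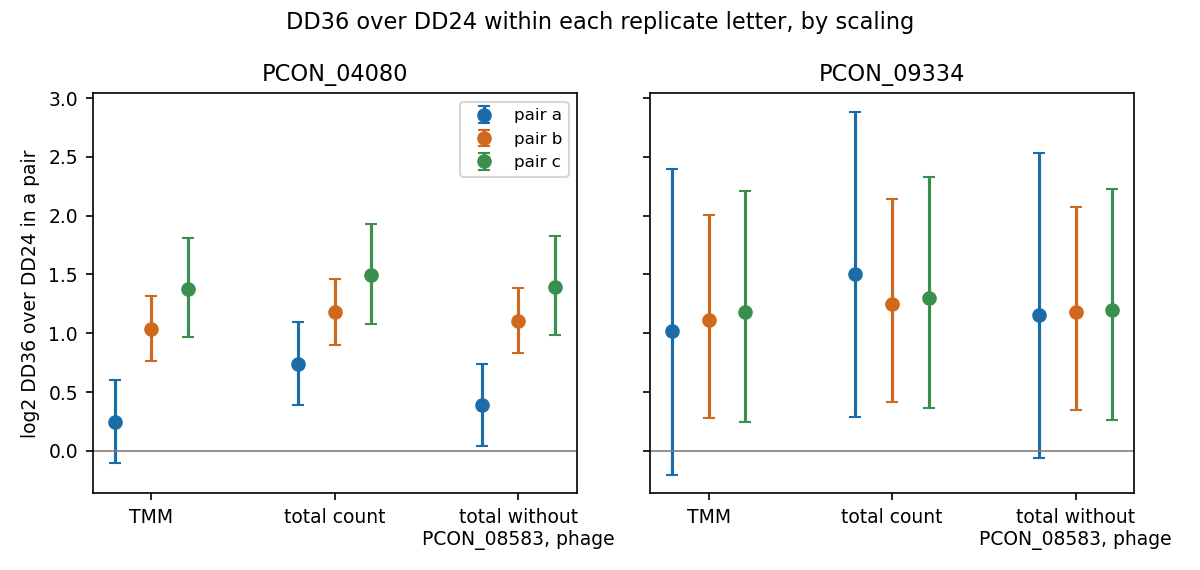
Log2 of DD36 over DD24 within each replicate letter under 3 scalings, with bars for exact 95% counting intervals. The pairs of *PCON_09334* lie together under each scaling, while pair a of *PCON_04080* lies below pairs b and c, most of all under TMM (0.25 against 1.04 and 1.38).

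In the fit over all 5466 genes tested (edgeR's quasi-likelihood model) the log2 fold change of DD36 over DD24 was 0.83 (standard error 0.28) for *PCON_04080* and 1.10 (standard error 0.27) for *PCON_09334*, a fold of 1.78 and 2.14. With the replicate letter as a block these were 0.88 (standard error 0.18) and 1.11 (standard error 0.27), so that the standard error became smaller for *PCON_04080* and hardly moved for *PCON_09334*. These standard errors come from the model over all genes. The log2 values of the 3 pairs of *PCON_04080* itself had an SD of 0.58 under TMM. Ordered by log2 fold change, *PCON_09334* was the fifth and *PCON_04080* the 33rd of all genes tested. Both had DD36 values above all DD24 values, which was so for 6.02% of the genes tested, and nothing is read from this, since the contrast chose both genes. Leaving out DD24 replicate c gave *PCON_04080* a log2 fold change of 0.56, and leaving out DD24 replicate a one of 1.08. Over all alternatives *PCON_09334* ranged from 1.01 to 1.32.

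**Figure D4:**
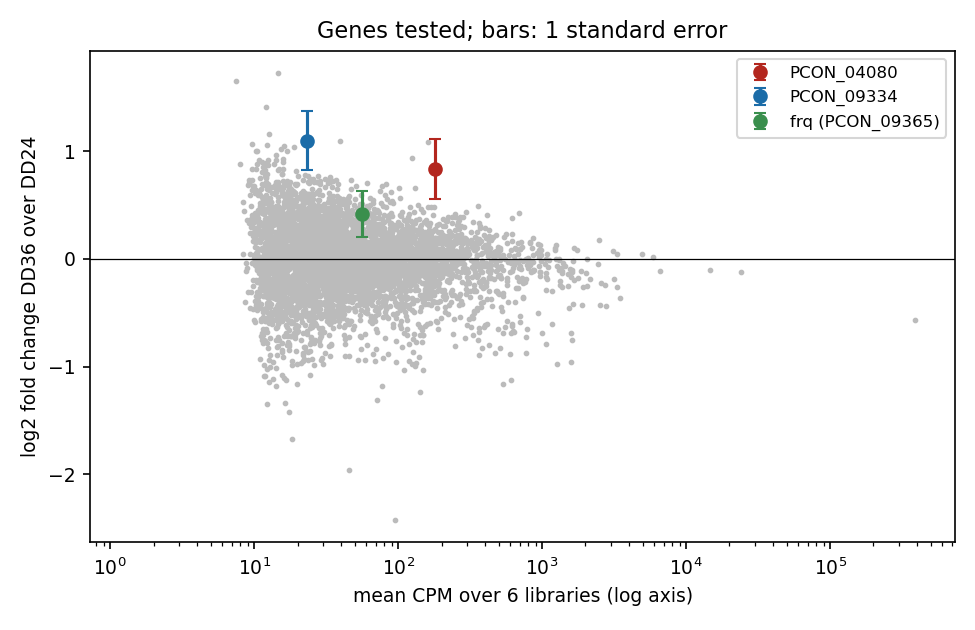
Log2 fold change of DD36 over DD24 against mean CPM (log axis) for the 5466 genes tested in grey, with *PCON_04080*, *PCON_09334* and *frq* (*PCON_09365*) in color and bars of 1 standard error. The values are 1.10 for *PCON_09334*, 0.83 for *PCON_04080* and 0.41 for *frq*, and the CPM axis is not divided by length.

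The ratio of the counts of both genes within a library does not depend on scaling. *PCON_04080* had 8.14, 8.40 and 5.46 times the counts of *PCON_09334* in the DD36 libraries, and 13.9, 8.83 and 4.77 times in the DD24 libraries. The ranges overlap, and the log2 ratio averaged 2.85 ± 0.35 in DD36 and 3.06 ± 0.77 in DD24 (SD, n = 3 each), a difference of -0.22. This is given without a test, since both genes were chosen for being higher in DD36, and the difference was 0.15 without DD24 replicate a. In both time points the libraries of letter c had the lowest ratio.

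The nearest models on scaffold 154 had few counts. *PCON_04079*, also of unknown function and on the same strand, ends at 22922, directly before the first base of *PCON_04080*, an arrangement without any gap that 448 of 12818 neighboring pairs of models (3.50%) share. It was counted 1, 2 and 5 times in DD36 and 0, 1 and 2 times in DD24, so that few reads were assigned to it beside the 62 to 336 reads of *PCON_04080*. *PCON_04078*, similar to an oligoribonuclease, had 9, 5 and 4 counts in DD36 and 6, 5 and 5 in DD24. Per kilobase of its short mRNA this was 7.16 CPM in DD36 and 7.76 CPM in DD24, where *PCON_09334* had 11.3 and 5.24 CPM. Downstream, *PCON_04081* was counted 0 times in each library, which allows up to 3.47 CPM in DD36 and up to 4.73 CPM in DD24, and *PCON_04082* had 0, 1 and 1 counts in DD36 and 0, 2 and 1 in DD24. All 4 fell below the filter on low counts and were not tested. Of the 45 other models on this scaffold 20 were tested, with a median log2 fold change of -0.03 and 0 called by edgeR at an adjusted p under 0.05 (0 higher and 2 lower at an unadjusted p under 0.05). Of all 5466 genes tested edgeR likewise called 0, and 2.38% were higher and 4.61% lower at an unadjusted p under 0.05.

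Of the 4 nearest models to *PCON_09334*, 3 had enough counts to be tested. Its start faces that of *PCON_09335*, a homolog of the septin spn4, a protein that in fission yeast forms rings at the division site, with 351 bases between both models. *PCON_09335* was counted 238, 371 and 399 times in DD36 and 207, 341 and 282 times in DD24, which after scaling gave 319 ± 45.5 CPM in DD36 and 322 ± 22.2 CPM in DD24 (SD, n = 3 each). Its log2 fold change was -0.01 (standard error 0.16, adjusted p = 0.999 from edgeR), so that no difference was detectable for the gene facing *PCON_09334*. On the other side *PCON_09333*, for the cytochrome b subunit of succinate dehydrogenase, an enzyme of the TCA cycle and the respiratory chain, had 100.2 ± 7.66 CPM in DD36 and 88.4 ± 10.8 CPM in DD24 (log2 fold change 0.19, adjusted p = 0.903 from edgeR). *PCON_09332*, similar to an uncharacterized yeast protein, had a log2 fold change of -0.07 (edgeR, adjusted p = 0.986). *PCON_09336*, like *PCON_09334* a WD-repeat gene, was counted 10, 7 and 7 times in DD36 and 5, 6 and 6 times in DD24 and was not tested. Of the 30 other models on scaffold 445, 15 were tested, with a median of -0.05, and 0 were called without the block (1 higher and 2 lower at an unadjusted p under 0.05 from edgeR) and 1 lower with it. Over all genes tested 0 were called without the block (2.38% higher and 4.61% lower at an unadjusted p under 0.05 from edgeR). With the block 0.0915% were called higher and 1.21% lower.

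The homolog of Pwp2 was set beside the other genes of the small subunit processome. Words and subunit names in the product descriptions found 24 such models, *PCON_09334* included. Of the other 23, 17 had enough counts to be tested. In the fit 14 of these lay above 0 (49.7% of all genes did), and the median of the log2 fold changes was 0.44 (-0.00 over all genes tested). None of these 17 genes passed an adjusted p of 0.05 by edgeR with or without the block or by limma-voom. Over all genes edgeR called 0 of 5466 (0.0%) higher and 0 (0.0%) lower without the block. With the block it called 5 (0.0915%) higher and 66 (1.21%) lower. DESeq2 called none of the 17 either, but it can leave genes of few counts without an adjusted p. This was so for *PCON_03119*, a clock gene named below with a higher mean CPM than each of the 17, and nothing is read from DESeq2 here. At an unadjusted p under 0.05 from edgeR 3 of the 17 were higher and 0 lower, where 2.38% of all genes were higher and 4.61% lower. With the block 2 were higher at this p, and 1 of the 11 genes with at least 10 counts in every library was. The DD36 values lay above the DD24 values without overlap in 5 of the 17 and below them in 0 (6.02% and 5.87% over all genes). A gene of few counts can pass the filter on its counts in 1 time point alone. This can favor genes that differ, and nothing is concluded from these shares. The median was 0.27 over the 11 genes with at least 10 counts in every library and 0.45 over all 23 without a filter, and 0.23 when DD24 replicate b was left out. Under total-count scaling, which moved the median of all genes to 0.23, all 17 lay above 0 with a median of 0.67.

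Among these genes the 3 with the smallest p were *PCON_01332* (homolog of UTP7), *PCON_11987* (KRR1) and *PCON_05874* (UTP15), all parts of the yeast particle, the last of them named after its values were seen. *PCON_01332* was counted 34, 50 and 45 times in DD36 and 9, 29 and 27 times in DD24 (log2 fold change 0.73 ± 0.27, standard error, with edgeR's adjusted p at 0.607). *PCON_11987* was counted 36, 61 and 55 times in DD36 and 26, 32 and 29 times in DD24 (log2 fold change 0.50 ± 0.22, standard error, with edgeR's adjusted p at 0.708). *PCON_05874* stood at 0.88 ± 0.40 on the log2 scale (standard error, edgeR's adjusted p at 0.708). *PCON_13281* (UTP20) and *PCON_08150* (RRP5, needed in yeast for both ribosomal subunits) had log2 fold changes of 0.34 and 0.25 (edgeR, adjusted p = 0.792 and 0.843). *PCON_11434* (the GTPase BMS1) had one of 0.20 (edgeR, adjusted p = 0.931). *PCON_07769* and *PCON_01304*, for NOP56 and NOP58, which form the core of U3 and related small nucleolar particles, had log2 fold changes of -0.02 and 0.08, and *PCON_02330* (UTP10) one of -0.01 (edgeR, adjusted p = 0.995, 0.979 and 0.9999).

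Of the UTP-B partners of Pwp2, homologs of UTP6, UTP13 and UTP18 were found by name. *PCON_11468* (UTP13), the one that could be tested, was counted 12, 19 and 20 times in DD36 and 9, 14 and 13 times in DD24, a log2 difference in the fit of 0.22 ± 0.32 (standard error, edgeR's adjusted p at 0.947). *PCON_03644* (UTP6) had 11, 10 and 16 counts in DD36 and 6, 9 and 7 in DD24, and *PCON_10175* (UTP18) 11, 11 and 13 counts in DD36 and 5, 7 and 8 in DD24, both too few for the filter. Per kilobase, *PCON_09334* was eighth of the 18 processome genes tested by its DD36 mean (11.3 CPM, median of the list 11.2 CPM) and 15th by its DD24 mean (5.24 CPM, median 8.32 CPM). Its place varied between 7 and 11 over the DD36 libraries and between 10 and 16 over the DD24 libraries, so that the ranges meet. Its log2 fold change was the highest of the 18. The choice of the gene favors this as well as its lower place in DD24.

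**Figure D5:**
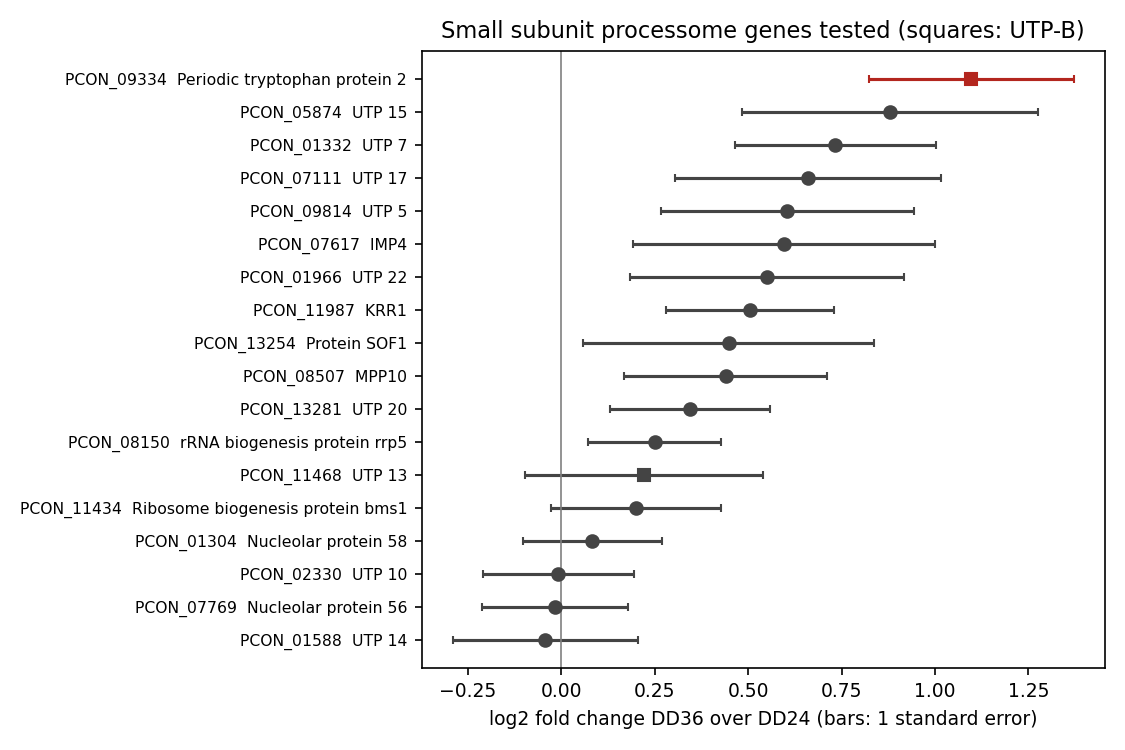
Log2 fold change of DD36 over DD24 with 1 standard error for the 18 processome genes tested, ordered by value, with *PCON_09334* in red and UTP-B members as squares. *PCON_09334* stands at 1.10, *PCON_11468* of the same subcomplex at 0.22, and 14 of the other 17 lie above 0.

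WD-repeat genes were listed by words in the product descriptions, which can miss genes whose description does not name the repeat. Among the 27 genes of this list that were tested, *PCON_09334* was lowest by its DD24 mean (5.24 CPM per kilobase, median 14.2 CPM). By its DD36 mean it was 20th (11.3 CPM, median 17.1 CPM). Its place varied between 18 and 24 over the DD36 libraries and between 24 and 27 over the DD24 libraries, and it was the lowest in DD24 replicate a alone, where it had 8 counts. The gene was chosen for a lower level in DD24, and genes low at both time points fall below the filter. Nothing is therefore read from these places. The 26 other genes tested from this word list had a median log2 fold change of 0.00, with 13 above and 13 below 0. They ranged from -0.47 to 0.59, and WD-repeat genes missed by the words are not covered. Of these, 0 were called by edgeR with or without the block or by limma-voom. Over all 5466 genes edgeR called 0 without the block, and 0.0915% higher and 1.21% lower with it. At an unadjusted p under 0.05 from edgeR 1 was higher and 1 lower, against 2.38% and 4.61% of all genes. DESeq2 called 0 too, with the limit given for the processome. The 2 with the highest mean CPM, not divided by length, were *PCON_03473*, similar to WRAP73, with 295 ± 37.6 CPM in DD36 and 409 ± 85.0 CPM in DD24 (SD, n = 3 each, adjusted p = 0.649 from edgeR), and *PCON_13905*, similar to the fission yeast F-box protein pop2, with 138 ± 9.63 CPM in DD36 and 130.0 ± 8.98 CPM in DD24 (edgeR, adjusted p = 0.971).

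Among the 453 genes of unknown function that were tested, *PCON_04080* was number 59 per kilobase by its DD36 mean (108 CPM, median 22.1 CPM) and number 111 by its DD24 mean (60.9 CPM, median 24.1 CPM). The other 452 had a median log2 fold change of -0.11, with 166 above and 286 below 0. None was called by edgeR without the block, and 0 higher and 11 lower were called with it, where the shares over all genes were 0.0915% higher and 1.21% lower. At an unadjusted p under 0.05 from edgeR without the block 7 were higher and 43 lower, where 2.38% of all genes were higher and 4.61% lower. Of 5564 models with this description, 2385 had no count in any library.

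Of 11 homologs of clock and light reception genes 10 were tested, and the other one, *PCON_04123*, similar to a cryptochrome, had 1 count in all. *frq* (*PCON_09365*) had 55, 89 and 60 counts in DD36 and 29, 68 and 32 counts in DD24, or 64.8 ± 10.3 CPM in DD36 and 48.0 ± 10.5 CPM in DD24 (SD, n = 3 each). It was higher in DD36 in each pair, by 1.39-fold, 1.27-fold and 1.42-fold in a, b and c, but the values overlapped between the time points (log2 fold change 0.41 ± 0.21, standard error, with edgeR's adjusted p at 0.743, 0.361 with the block). *frq* lies on scaffold 447, on neither scaffold of the 2 genes. *PCON_11360*, for the helicase FRH, stood at 57.9 ± 4.01 CPM in DD36 and 55.1 ± 3.66 CPM in DD24 (SD, n = 3 each, adjusted p = 0.986 from edgeR).

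*PCON_03119* and *PCON_05086*, for the blue light receptor White collar 1 and its partner White collar 2, had log2 fold changes of -0.25 and 0.25 (edgeR, adjusted p = 0.869 and 0.939). *PCON_06747*, similar to a phytochrome, a receptor of red light in other organisms, had one of 0.15 (edgeR, adjusted p = 0.932). The homologs of casein kinase I, *PCON_09586* and *PCON_10056*, stood at -0.05 and -0.02 (edgeR, adjusted p = 0.987 and 0.993), and those of the alpha and both beta subunits of casein kinase II, *PCON_10125*, *PCON_02251* and *PCON_05350*, at 0.11, 0.12 and -0.23 (edgeR, adjusted p = 0.963, 0.947 and 0.872). Of the 10 genes of this list that were tested, 0 were called by edgeR with or without the block or by limma-voom. Over all 5466 genes edgeR called 0 without the block, and 0.0915% higher and 1.21% lower with it. DESeq2 called 0 too, but gave *PCON_03119*, *PCON_10125*, *PCON_02251* and *PCON_06747* no adjusted p. An unadjusted p under 0.05 from edgeR was found for 0 of the 10, against 2.38% of all genes higher and 4.61% lower. The median of the 10 genes was 0.09.

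Which genes followed the same course over the 6 libraries was read from the root-mean-square difference between log2 CPM profiles, each centred on its own mean. For *PCON_09334* the closest gene was *PCON_13271* (difference 0.12), similar to RPAC1, a subunit that RNA polymerases I and III share and thus part of the enzymes that make ribosomal and transfer RNA. It was counted 13, 28 and 25 times in DD36 and 5, 14 and 8 times in DD24. *PCON_04778*, for the mitochondrial ribosomal protein L6 (difference 0.17), *PCON_13302* of unknown function (0.18), *PCON_13789*, similar to a ferric reductase (0.21), and *PCON_06925*, an ankyrin-like gene (0.22), came next, where the median over all genes tested was 0.58. The course of *PCON_04080* was closest to that of *PCON_09376*, similar to a Grainyhead-like protein (difference 0.18), with 49, 78 and 70 counts in DD36 and 34, 52 and 16 counts in DD24. It was followed by *PCON_06092*, similar to a hypothetical protein of *Arthrobotrys oligospora* (0.19), *PCON_06597*, similar to prtT, an activator of protease genes in *Aspergillus* (0.19), the TPR repeat gene *PCON_12388* (0.24) and *PCON_06318* of unknown function (0.25), against a median of 0.65. As for *PCON_04080*, DD24 replicate c was the lowest of the 6 libraries for each of these 5 genes. Their choice by closeness to *PCON_04080* favors this, and they had only 3 to 16 counts in that library. The difference between both genes of the study was 0.47, which made *PCON_09334* number 306 in closeness to *PCON_04080* of 5465 genes. In closeness to *PCON_09334*, *PCON_04080* was number 994. The profiles are sums of the time points, the letters and counting error over 6 libraries, and with the means of the letters removed 1 of these 5 genes was still among the closest for *PCON_04080* and 3 of 5 for *PCON_09334*.

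The study followed 7 further genes, chosen on the same libraries, and their values are given without a test. *PCON_04507*, a putative D-galactonate dehydratase, had 225, 87 and 171 counts in DD36 and 39, 58 and 118 counts in DD24. *PCON_13506*, a putative subtilisin-like protease, was counted 391, 188 and 48 times in DD36 and 128, 71 and 44 times in DD24. Their fitted log2 fold changes, 0.94 (standard error 0.63) and 1.09 (standard error 1.07), were of a size with those of *PCON_04080* and *PCON_09334*, but the DD36 and DD24 values overlapped in both. With the letter as a block their standard errors were 0.26 and 0.21. After scaling, *PCON_13506* was higher in DD36 in pairs a and b. In pair c it was lower, with 44.1 CPM in DD36 and 53.3 CPM in DD24. Among the genes with lower counts in DD36, *PCON_01669* (mannitol-1-phosphate dehydrogenase), *PCON_03866* (trehalose phosphorylase) and *PCON_08647* (a membrane protein) had log2 fold changes of -0.88, -0.80 and -1.42 with standard errors of 0.24, 0.43 and 0.59. For *PCON_09693* and *PCON_12782* these were -2.42 (standard error 0.87) and -1.96 (standard error 1.55), and *PCON_12782* was counted 38, 12 and 9 times in DD36 and 20, 206 and 0 times in DD24.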

How the data were processed

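The authors sequenced total RNA prepared as TruSeq libraries, trimmed the reads and mapped them to their genome v01_2. CASAVA 1.8.2 and DESeq stand in the submitters' processing notes. Not given in the sources used here are the aligner, the counter, its use of strand and its handling of reads that match several places. The authors deposited whole-number read counts per gene model and library, with model coordinates and lengths in bases, and these were used as deposited. Further columns hold the authors' own DESeq and LOX comparisons (base means, ratios, log2 ratios, probabilities and p-values) and were not used. Both genes and all lists were chosen with earlier results of these data known.

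Genes passing edgeR's expression filter (5466 of 13369) were fitted with edgeR 4.0.16 (robust quasi-likelihood test, TMM scaling, condition as the only term, Benjamini-Hochberg adjustment, R 4.3.3), with 0.05 as threshold. Counting intervals are exact at 95% and cover counting error only. Profiles used log2 CPM with a prior count of 2. Alternatives were other scalings and filters, the replicate letter as a block, DESeq2 1.42.0, limma-voom 3.58.1 and leaving out each library. The script was tested on simulated data. Same-letter libraries deviated together from their group means (correlations over genes of 0.223 for a, 0.272 for b and 0.316 for c, against a minimum of 0.1), so that the letters were treated as pairs, although nothing in the labels says what a letter shares.

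Named were both genes, the clock and light genes tested, the 8 processome genes of highest mean CPM, not divided by length, and all UTP-B homologs, the 2 models on either side of each gene, the 5 genes with the closest profiles and the other 7 genes that the study followed. Of the WD-repeat genes, where the rule allowed 8, the 2 of highest mean CPM were named. *PCON_05874*, *PCON_04896*, *PCON_03294*, *PCON_08583* and *PCON_04123* were named after their values were seen. Locus tags of 13367 models matched the RefSeq gene table.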

Additional observations from a re-analysis of the deposited data

How the results depend on the processing

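*PCON_04080* and *PCON_09334* kept a higher level in DD36 under each alternative that could be run. The same contrast chose both genes and every alternative reuses these libraries, so that nothing is read from this. *PCON_09334*, with 8 counts in DD24 replicate a, has no value where at least 10 counts in every library were asked for. Over all genes, edgeR called 0 higher and 0 lower, but 2 and 51 without a filter, 5 and 66 with the replicate block, and DESeq2 called 27 lower. At an adjusted p under 0.1, 3 were lower, and leaving out single libraries gave 0 to 20 lower, with 20 without DD24 replicate c. The block changed no call of a processome, WD-repeat, clock or neighboring gene named. The log2 difference of the ratio of both genes ranged from -0.62 to 0.15 with single libraries left out, and was 0.15 without DD24 replicate a. Of the 5 closest genes, 1 for *PCON_04080* and 3 for *PCON_09334* were shared with the letter means removed, and 1 and 2 with Pearson's correlation.

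Signs turned for genes near 0. Total-count scaling, which moved the median of all genes by 0.23, gave 0.16 for *PCON_09586*, 0.21 for *PCON_10056*, 0.0071 for *PCON_03119*, 0.25 for *PCON_07769*, 0.23 for *PCON_02330*, 0.17 for *PCON_09332* and 0.23 for *PCON_09335*. *PCON_07769* stood at 0.0061 with the block and 0.019 with limma-voom. *PCON_02330* and *PCON_09335* stood at 0.0045 and 0.0040 without a filter, and at 0.0075 and 0.0054 with at least 10 counts in every library. With single libraries left out the ranges were -0.148 to 0.019 for *PCON_09586*, -0.103 to 0.056 for *PCON_10056*, -0.024 to 0.259 for *PCON_10125*, -0.0053 to 0.106 for *PCON_11360*, -0.070 to 0.532 for *PCON_05086*, -0.146 to 0.205 for *PCON_07769*, -0.093 to 0.209 for *PCON_01304*, -0.101 to 0.057 for *PCON_02330*, -0.182 to 0.024 for *PCON_09332* and -0.119 to 0.065 for *PCON_09335*. The causes were not tested.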
